A study of Mus musculus with 8 samples.

Results

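The genes described here move calcium ions through the skeletal muscle fibre: 10 genes, taken from the deposited expression table by their symbols (Atp2a1, Atp2a2, Sln, Ryr1, Cacna1s, Jph1, Trdn, Casq1, Casq2 and Pvalb), out of 54091 rows in that table and 15657 genes abundant enough to test. All 10 passed the abundance minimum. The RNA came from white quadriceps, a pale thigh muscle made mainly of fast fibres. All mice were males of 11 to 14 weeks on a 60% fat diet (7 days). In the controls (4 libraries, numbered 1 to 4) both alleles of Acot2, which encodes a mitochondrial acyl-CoA thioesterase, were flanked by loxP. The knockouts (4 libraries, numbered 5 to 8) had, on top of this, Cre recombinase driven by CKM, the muscle creatine kinase promoter, which is active in skeletal and heart muscle. Cre was present in the knockouts only, so an effect of Cre and an effect of losing Acot2 cannot be told apart, and Cre under this promoter leaves Acot2 in cells other than muscle. Whether every library is a separate animal is not stated, so a p-value here reflects only how much these samples vary, which may be technical.

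A contraction starts when the voltage sensor of the transverse tubule, the dihydropyridine receptor, opens the ryanodine receptor in the facing membrane of the sarcoplasmic reticulum. Calcium leaves the reticulum, where calsequestrin holds it, and binds troponin on the thin filament. Relaxation follows when the SERCA pumps return calcium to the reticulum, and in fast fibres of small mammals the soluble protein parvalbumin takes up calcium in the cytosol in the meantime.

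The values are normalized counts, that is, read counts scaled so that libraries can be compared, with no division by gene length. Reads recovered from the deposited values numbered 55283988 to 109101263 per library. The 10 genes together took 4.33% to 4.75% of all counts in the controls and 4.61% to 5.56% in the knockouts. The labels were checked against Acot2 itself, with normalized counts of 2166 to 4165 in controls and 256 to 354 in knockouts (log2 difference -3.24 ± 0.20 SE, limma, adjusted p = 4.72e-06). The fast myosin gene Myh4 was at 2368101 to 3859813 and the slow myosin gene Myh7 at 954 to 15188, so the defining marker of fast fibres was abundant in all 8 libraries. Of the 12 fast-fibre markers listed, Tnnc2, the fast troponin C gene, was an exception, at 73.9 to 129.0. The lowest of the other markers in that list, Gpd1, was at 26340 to 39985. Why Tnnc2 was so low was not tested. Control replicates 3 and 4 stood apart from the other 6 libraries: their scores on principal component 1, which held 34.5% of the variance, were 55.2 and 56.1, and those of the others -38.6 to 0.6. Genes with short transcripts were low in these 2 libraries, with a median deviation of -0.29 and -0.31 on the log2 scale in the quartile of shortest transcripts, against 0.06 to 0.17 in the other 6. Knockout replicate 8 stood apart in heart transcripts, which are given below beside Sln.

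No calcium-handling gene of the 10 passed the threshold (limma, adjusted p under 0.05 over all genes tested), where 0.00639% of all tested genes passed, the only one being Acot2. At an unadjusted p under 0.05 there were 5 of the 10, with 2 higher and 3 lower, and 26.9% of all genes tested. An adjusted p under 0.1 was reached by 4 of the 10, against 12.0% of all genes, and these 4 were Cacna1s, Pvalb, Casq1 and Ryr1. The values of the groups did not overlap for 3 of the 10, against 13.1% of all genes: Pvalb and Trdn were higher, as were 6.06% of all genes, and Cacna1s was lower, as were 7.06%. With sample quality weights 2 of the 10 passed, Pvalb and Cacna1s, and 7.67% of all genes. Without control replicate 1, 3 of the 10 passed and 11.0% of all genes, and without control replicate 2, 4 of the 10 and 13.1%. Leaving out either one keeps control replicates 3 and 4, which stood apart, among fewer controls. Estimates were higher in the knockout for 6 members and lower for 4, with a median log2 difference of 0.12, against 0.00 over all genes tested. The median size of the difference, without its sign, was 0.43 for the 10 members and 0.26 over all genes. In whole muscle, fewer cells of a type and less RNA per cell cannot be told apart.

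**Figure D1:**
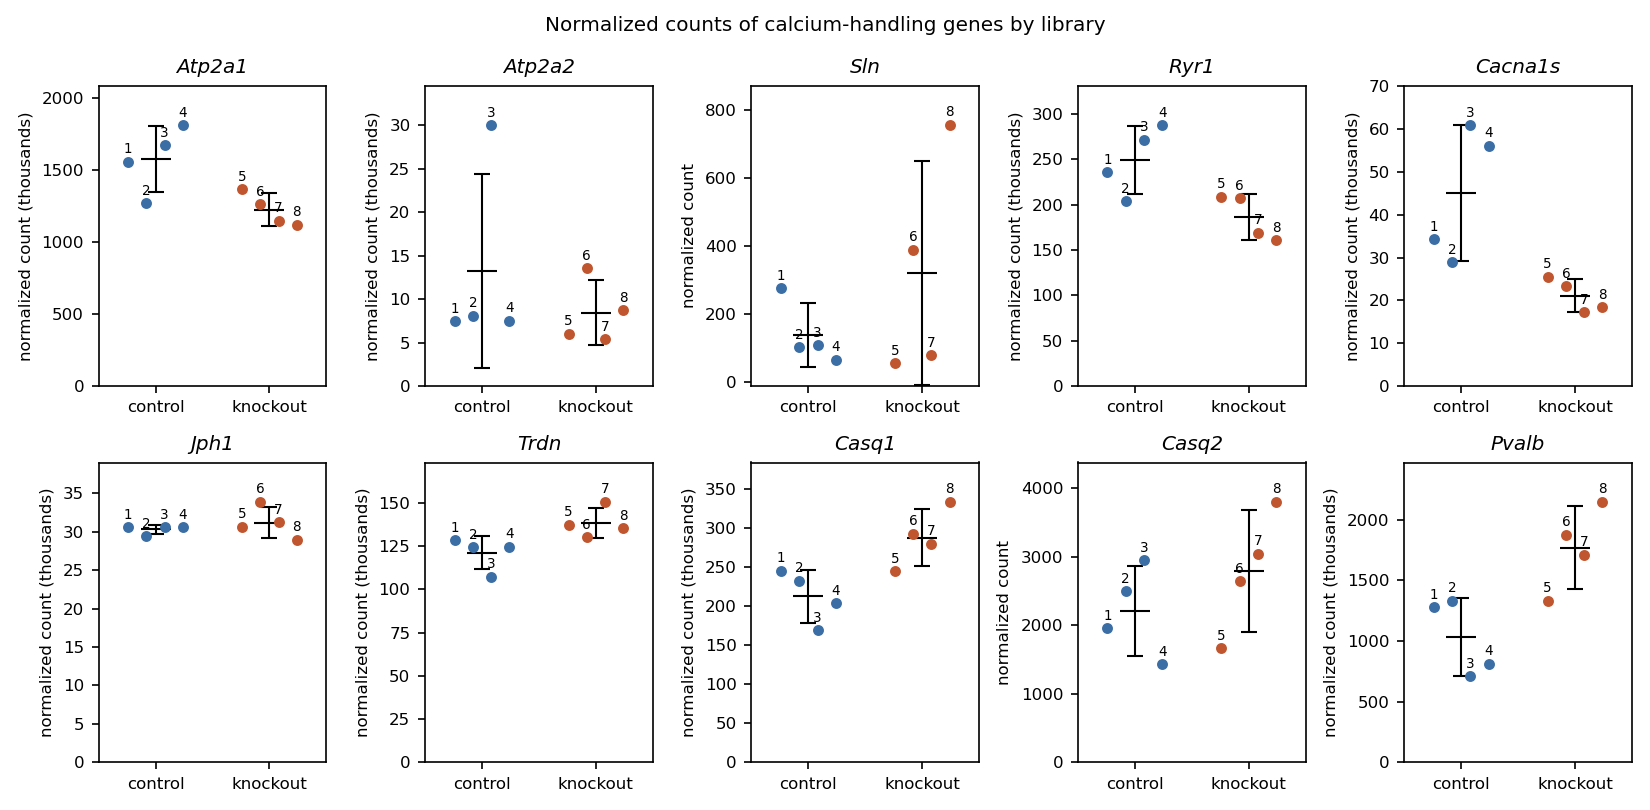
Normalized counts (vertical axes, in units of 1000 where so labelled) of the 10 calcium-handling genes in each library, control in blue and knockout in orange, numbered by replicate, with the mean and SD of 4 libraries in black. Pvalb and Trdn lie higher and Cacna1s lower in all 4 knockouts. Atp2a2 has 1 high control at 30037, and Sln is highest in knockout replicates 8 and 6, at 758 and 391.

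Per kilobase of merged exons, the control levels formed a steep order. The cytosolic buffer Pvalb came first, at 992003 ± 305096 normalized counts per kb (SD, n = 4), and the fast pump Atp2a1 came next, at 454125 ± 66524. Casq1, the calsequestrin of fast fibres, followed at 108974 ± 17399. The triad genes lay lower on the same per-length scale, with Trdn at 12971 ± 1007, Ryr1 at 11429 ± 1716, Cacna1s at 6883 ± 2416 and Jph1 at 6059 ± 116. The isoforms of slow and heart muscle and the pump inhibitor came last, with Atp2a2 at 2184 ± 1838, Casq2 at 807.5 ± 240.2 and Sln at 105.8 ± 70.8 per kb. The 4 control values of Trdn and Ryr1 overlapped, as did those of Cacna1s and Jph1, and no other neighbours in this order overlapped. Merged exons include rarely used ones, which lowers the per-length level of a gene such as Ryr1 (21838 bases).

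The buffers had higher estimates in the knockout. Pvalb encodes parvalbumin, the calcium-binding protein of fast fibres (chromosome 15, 78191114 to 78206400, minus strand, GRCm38). The controls, in order of their numbers, had normalized counts of 1278215, 1331018, 708691 and 812776, and the knockouts 1333050, 1876482, 1711226 and 2148055. All 4 knockouts lay above all 4 controls, but knockout replicate 5 exceeded control replicate 2 only narrowly, and the lowest values were those of control replicates 3 and 4. The log2 difference was 0.81 ± 0.21 (SE; 95% interval 0.36 to 1.26), a ratio of 1.75, which did not pass (limma, adjusted p = 0.0796). Without control replicates 3 and 4 it was 0.42 ± 0.16 (limma, adjusted p = 0.61), and without control replicate 1 or 2 it passed, at 0.93 and 0.95 (limma, adjusted p = 0.0337 and 0.0228), as it did with sample quality weights, at 0.84 (adjusted p = 0.0413). In these settings 11.0%, 13.1% and 7.67% of all genes passed, in that order.

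Casq1 encodes the main calcium-storing protein inside the reticulum of fast fibres (chromosome 1, 172209894 to 172219868, minus strand). Normalized counts of Casq1 were 245182, 232568, 168769 and 203913 in the controls and 244368, 292747, 279831 and 333631 in the knockouts. Control replicate 3 was lowest and knockout replicate 8 highest, and the groups overlapped only through control replicate 1 and knockout replicate 5. Knockouts exceeded controls by a log2 difference of 0.44 ± 0.14 (limma, adjusted p = 0.0891). It was 0.26 without control replicates 3 and 4 and 0.26 with the trend on transcript length removed, and it passed without control replicate 1, at 0.52 (limma, adjusted p = 0.0452).

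Casq2, the calsequestrin of slow and heart muscle (chromosome 3, 102086415 to 102146514, plus strand), was far less abundant per length. The counts, normalized, were 1961, 2492, 2952 and 1433 in the controls and 1669, 2637, 3042 and 3802 in the knockouts. The groups overlapped over most of their range, with the highest value in knockout replicate 8. The estimate on the log2 scale was 0.32 ± 0.26 (95% interval -0.25 to 0.90; limma, adjusted p = 0.441), and 0.16 without knockout replicate 8.

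The promoters of the 4 genes with the smallest p-values among the 10 are shown with the genes they belong to, so that the sequence near each start can be read beside the counts. They are RefSeq windows of 250 bases before to 50 after the start (GRCm38.p6), 5′ to 3′ on the strand of the gene, and of the 10 genes 6 had a window in that table. Capitals mark E-boxes, CANNTG, the letters bound by myogenic factors such as MyoD, searched on both strands; the MEF2 motif, taken as CTA and TAG with 4 bases between them, and TATAAA were searched on both strands as well. An E-box stood in 5 of the 7 windows of these 6 genes (Pvalb has 2 windows) and in 72.3% of all 32851 promoters of this length. In exactly these spellings the MEF2 motif and TATAAA stood in 0 of the 7, against 3.69% and 13.6% of all promoters. Those of the buffers Pvalb (chr15:78206351-78206650, minus strand) and Casq1 (chr1:172219846-172220145, minus strand) read as follows.
Pvalb: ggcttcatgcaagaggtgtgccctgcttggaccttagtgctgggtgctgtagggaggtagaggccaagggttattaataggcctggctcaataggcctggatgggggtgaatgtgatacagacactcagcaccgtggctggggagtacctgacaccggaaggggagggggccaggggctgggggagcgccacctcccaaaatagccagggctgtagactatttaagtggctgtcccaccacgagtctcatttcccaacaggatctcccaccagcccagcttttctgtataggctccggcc
Casq1: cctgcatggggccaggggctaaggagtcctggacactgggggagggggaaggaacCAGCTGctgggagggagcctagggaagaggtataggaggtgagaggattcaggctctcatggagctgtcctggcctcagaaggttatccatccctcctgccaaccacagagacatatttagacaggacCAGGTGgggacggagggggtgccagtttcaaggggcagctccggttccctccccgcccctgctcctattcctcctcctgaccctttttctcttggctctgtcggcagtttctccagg
Casq1 has 2 E-boxes, starting 195 and 67 bases before the start site, and this window of Pvalb has none of the 3 motifs as spelled above. This Pvalb window does hold ttattaatag, with TTA in place of CTA, a looser MEF2 spelling that was not searched. The other window of Pvalb has 2 E-boxes.

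The channels of the triad had lower estimates. Cacna1s encodes the pore and voltage sensor of the dihydropyridine receptor (chromosome 1, 136052750 to 136119822, plus strand). Controls 1, 2, 3 and 4 had normalized counts of 34291, 28950, 60952 and 56149, and the knockouts 25511, 23260, 17267 and 18371. Every knockout lay below every control, and control replicates 3 and 4 were well above the other controls. The log2 difference was -1.04 ± 0.22 (95% interval -1.53 to -0.56), a ratio of 0.49, the largest among the 10 in size, and it did not pass (limma, adjusted p = 0.0796). Without control replicates 3 and 4 it was -0.60 ± 0.15 (limma, adjusted p = 0.543). It passed without control replicate 1 (-1.15, limma, adjusted p = 0.0337), without control replicate 2 (-1.23, adjusted p = 0.0181) and with sample quality weights (-1.13, adjusted p = 0.0387). Of its exon bases, 19.98% lie opposite an exon of the unnamed gene model Gm37759 on the other strand, and since the strand setting of the counting is not given, reads of the pair cannot be told apart there.

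Ryr1 encodes the ryanodine receptor, the release channel of the reticulum (chromosome 7, 29003344 to 29125179, minus strand). Normalized counts of Ryr1 were 235668, 203729, 271425 and 287538 in the controls and 208703, 207018, 168886 and 160520 in the knockouts. Control replicate 2 lay inside the knockout range, and the other 3 controls lay above all knockouts. Ryr1 had a log2 difference of -0.42 ± 0.14 (limma, adjusted p = 0.095). It was -0.08 with the length trend removed and -0.24 without control replicates 3 and 4, and it passed without control replicate 2 (-0.51, limma, adjusted p = 0.0356). The promoter windows of Cacna1s (chr1:136052561-136052860, plus strand) and Ryr1 (chr7:29125102-29125401, minus strand) read as follows.
Cacna1s: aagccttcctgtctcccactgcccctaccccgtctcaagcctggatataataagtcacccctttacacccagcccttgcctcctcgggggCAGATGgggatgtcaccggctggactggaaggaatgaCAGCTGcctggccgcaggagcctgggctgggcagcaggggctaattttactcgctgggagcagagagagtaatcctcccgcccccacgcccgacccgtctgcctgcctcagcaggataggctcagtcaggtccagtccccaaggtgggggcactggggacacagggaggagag
Ryr1: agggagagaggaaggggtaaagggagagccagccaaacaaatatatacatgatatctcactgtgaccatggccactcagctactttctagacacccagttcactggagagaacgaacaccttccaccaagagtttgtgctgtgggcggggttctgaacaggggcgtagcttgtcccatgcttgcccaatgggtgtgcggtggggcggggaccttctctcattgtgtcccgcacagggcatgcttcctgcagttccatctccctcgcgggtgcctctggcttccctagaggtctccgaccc
The Cacna1s window holds 2 E-boxes, starting 160 and 123 bases before the start site, and the Ryr1 window holds none of the 3 motifs as spelled above.

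The genes whose proteins hold the triad together had small differences. Jph1 encodes junctophilin 1, which ties the reticulum to the tubule membrane (chromosome 1, 16964560 to 17097889, minus strand). In normalized counts it was at 30547, 29417, 30611 and 30560 in the controls and 30647, 33901, 31215 and 28946 in the knockouts, so the control values lay inside the knockout range. On the log2 scale the difference was 0.04 ± 0.10 (95% interval -0.17 to 0.25; limma, adjusted p = 0.819). Trdn encodes triadin, which links calsequestrin to the ryanodine receptor (chromosome 10, 33080554 to 33476709, plus strand). Normalized counts of Trdn were 128427, 124604, 107434 and 124742 in the controls and 137483, 130094, 150749 and 135364 in the knockouts. All 4 knockouts lay above all controls, by little. Its log2 difference was 0.19 ± 0.11 (95% interval -0.04 to 0.43; limma, adjusted p = 0.273), and it was 0.39 with the length trend removed (limma, adjusted p = 0.0991).

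**Figure D2:**
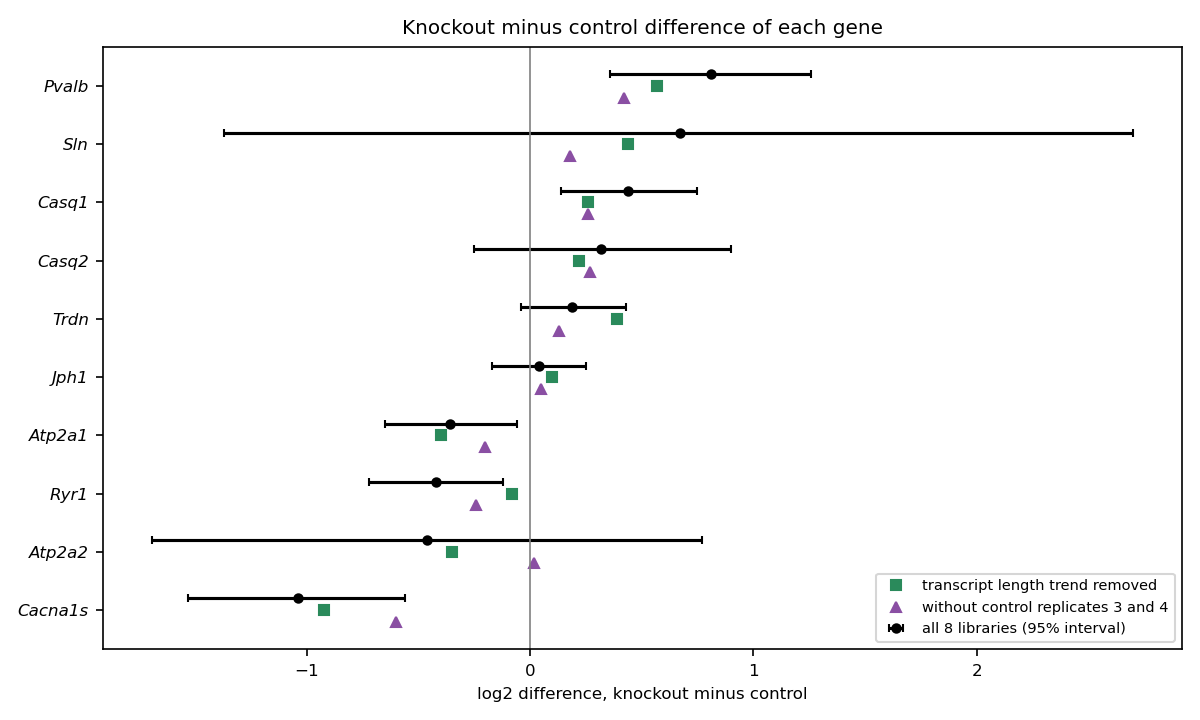
Log2 difference, knockout minus control, of each gene (horizontal axis) over all 8 libraries with its 95% interval (black), with the transcript length trend removed (green squares) and without control replicates 3 and 4 (purple triangles). Without these 2 libraries Pvalb lies at 0.42 in place of 0.81, Cacna1s at -0.60 in place of -1.04 and Atp2a2 at 0.02 in place of -0.46.

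Neither the pumps nor their inhibitor passed the test with all 8 libraries. Atp2a1 encodes SERCA1, the calcium pump of fast fibres (chromosome 7, 126445858 to 126463108, minus strand). Normalized counts of Atp2a1 were 1559875, 1268946, 1673456 and 1813694 in the controls and 1366827, 1264468, 1149599 and 1120801 in the knockouts. Control replicate 2 lay among the knockouts, and control replicates 3 and 4 were highest. Atp2a1 had a log2 difference of -0.36 ± 0.14 (95% interval -0.65 to -0.06; limma, adjusted p = 0.126). It was -0.20 without control replicates 3 and 4, and it passed without control replicate 2 (-0.46, limma, adjusted p = 0.0449). Exons of Rabep2 on the other strand overlap 21.9% of its exon bases, where reads of the pair cannot be told apart without strand.

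Atp2a2 encodes SERCA2, the pump of slow and heart muscle (chromosome 5, 122453513 to 122502225, minus strand). Its normalized counts were 7457, 8109, 30037 and 7525 in the controls and 6028, 13571, 5408 and 8735 in the knockouts. Control replicate 3 was far above every other library, and knockout replicate 6 came next. Over all libraries the log2 difference was -0.46 ± 0.52 (95% interval -1.69 to 0.77; limma, adjusted p = 0.607). Without control replicate 3 it turned to 0.04 ± 0.27. The slow-fibre markers were high in the same libraries: Myh7 was at 15188 in control replicate 3, at 6883 in knockout replicate 6 and at 954 to 2881 in the other 6, and all 10 genes of the slow-fibre list had their highest value in one of these 2 libraries. The summed level of that list was 103237 to 278090 in the controls and 102349 to 200091 in the knockouts, with no marker at 0 in every library. Myh2, the type IIa myosin gene, which is a fast isoform, and Fhl1 made up 58.8% to 87.1% of this sum. Without that pair, left out after their values were seen, the sum was 13267 to 80162 in the controls and 24387 to 82526 in the knockouts, highest in control replicate 3 and knockout replicate 6. The part of slow-fibre transcripts in the Atp2a2 values was not tested. Of the windows of 50 bases along Atp2a2 transcripts, 3.93% also occur in another annotated gene, and none of them in Atp2a1.

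Sln encodes sarcolipin, a small membrane peptide that binds SERCA and lowers its transport of calcium per ATP. It is transcribed from chromosome 9 (53850164 to 53854560, plus strand), and its open reading frame of 31 codons, shown because it spans so little of the transcript, lies at 53853473 to 53853565 without the stop codon (start codon in capitals, GENCODE M21, GRCm38).
Sln: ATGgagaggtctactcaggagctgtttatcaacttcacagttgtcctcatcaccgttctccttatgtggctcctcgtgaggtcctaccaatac
The 8 normalized counts were 276.5, 104.5, 109.4 and 67.2 in the controls and 57.2, 390.8, 80.3 and 758.1 in the knockouts, which rest on 59 to 621 reads. Knockout replicates 8 and 6 and control replicate 1 were high, and the other 5 libraries lay at or under 109.4. Sln had a log2 difference of 0.67 ± 0.88 (95% interval -1.37 to 2.70; limma, adjusted p = 0.655). This was 0.01 ± 0.63 when knockout replicate 8 was left out and 0.33 without knockout replicate 6, against 1.25 without knockout replicate 5, 1.09 without knockout replicate 7 and 1.06 without control replicate 1.

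Sln, Casq2 and Atp2a2 are also heart muscle genes, and knockout replicate 8 held heart transcripts. Myl7, the atrial myosin light chain, was at 1124 there and at most 4.1 in the other 7 libraries, with 0 in control replicate 1 and knockout replicates 5 to 7. Nppa, the atrial natriuretic peptide gene, was at 1648 against at most 6.1. Of the 12 heart markers 10 were highest in this library, and none was at 0 in every library. The summed level of the list was 5372 to 7161 in the controls and 6152 to 9346 in knockout replicates 5 to 7, against 17012 in knockout replicate 8. Sbk2 alone made up most of this sum in every library but knockout replicate 8. It was at 3928 to 6177 in the controls, 4827 to 7562 in knockout replicates 5 to 7 and 4409 in knockout replicate 8. Knockout replicate 6, with the next highest Sln, had Myl7 and Nppa at 0. The part of heart transcripts in the values of Sln and Casq2 in knockout replicate 8 was not tested. Without that library the differences of the buffers and channels that had a smaller p were 0.71 for Pvalb, 0.37 for Casq1, -0.98 for Cacna1s and -0.35 for Ryr1.

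**Figure D3:**
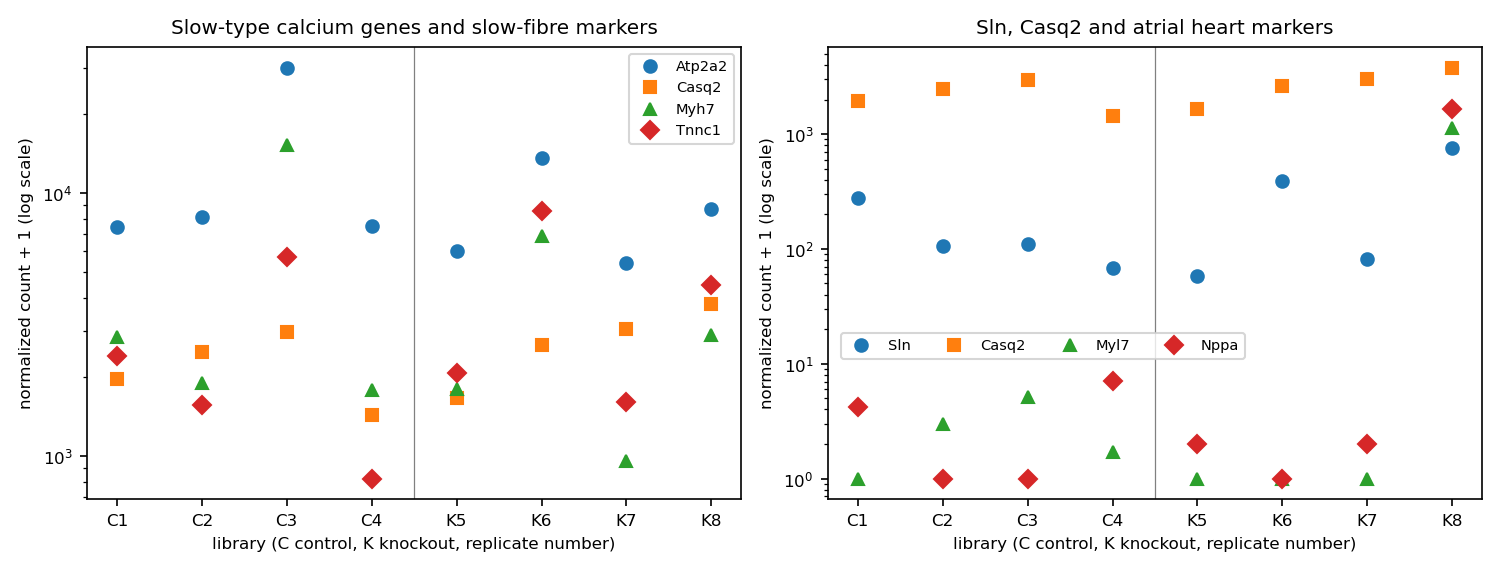
Normalized count + 1 on a log axis in each library, control (C) and knockout (K) with the replicate number. On the left Atp2a2 is highest in control replicate 3 and knockout replicate 6, as are the slow-fibre markers Myh7 and Tnnc1, while Casq2 is highest in knockout replicate 8; on the right Myl7 and Nppa reach 1124 and 1648 only in knockout replicate 8, where Sln is also highest.

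Ratios between 2 members within a library do not depend on how libraries were scaled, and 5 were compared by an exact two-sided permutation test over the 70 splits of 8 libraries, with a smallest possible p of 0.0286. The log2 ratio of Ryr1 to Cacna1s, the channels that face each other in the triad, was 2.78, 2.81, 2.15 and 2.36 in the controls and 3.03, 3.15, 3.29 and 3.13 in the knockouts. Each knockout lay above each control, with a difference of 0.62 (exact permutation p = 0.0286; 0.143 with Benjamini-Hochberg adjustment over the 5 ratios). Without control replicates 3 and 4 the difference was 0.35, and the highest control value was that of replicate 2. The log2 ratio of Pvalb to Casq1, cytosolic over reticular buffer, was 2.24 ± 0.25 in the controls and 2.61 ± 0.11 in the knockouts (SD, n = 4 each), a difference of 0.37 (exact permutation p = 0.0571; adjusted 0.143). Control replicate 2, at 2.52, lay above knockout replicate 5, at 2.45, and without control replicates 3 and 4 the difference was 0.16.

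The isoform ratios overlapped. The log2 ratio of the slow to the fast pump, Atp2a2 to Atp2a1, was -7.18 ± 0.95 in controls and -7.28 ± 0.61 in knockouts (SD, n = 4 each; exact permutation p = 0.914, adjusted 0.914). That of Casq2 to Casq1 was -6.62 ± 0.58 and -6.74 ± 0.34 (exact permutation p = 0.80, adjusted 0.914). Both were highest in control replicate 3, at -5.80 and -5.84. The log2 ratio of the inhibitor to its pump, Sln to Atp2a1, was -13.65 ± 0.93 and -12.62 ± 1.85 (exact permutation p = 0.371, adjusted 0.619). Its difference of 1.03 was 0.33 without knockout replicate 8 and 1.66 without knockout replicate 5.

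**Figure D4:**
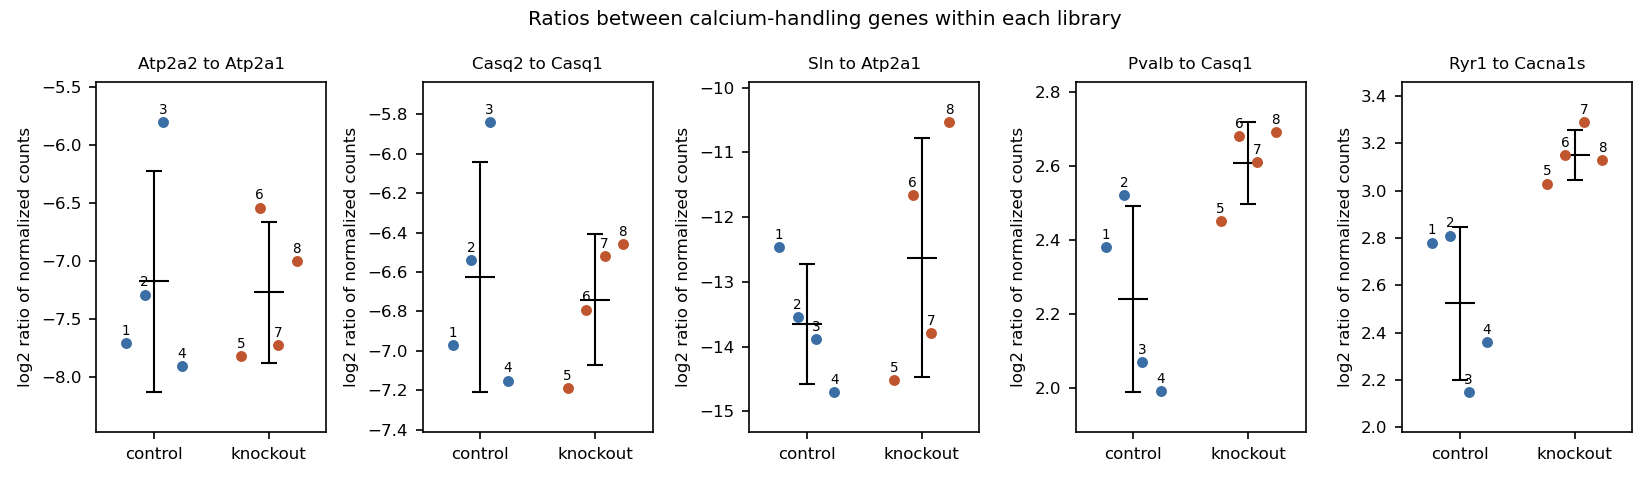
Log2 ratio of normalized counts of 2 genes within each library (vertical axes differ and do not start at 0), control in blue and knockout in orange, numbered by replicate, with mean and SD in black. Ryr1 to Cacna1s is the ratio whose groups do not overlap, with controls at 2.15 to 2.81 and knockouts at 3.03 to 3.29.

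The direction of the estimates differed with exon length. The 4 members with the shortest merged exons (Pvalb, Sln, Casq1 and Casq2, 1041 to 2736 bases) all had higher estimates, and of the 6 longer ones (3477 to 21838 bases) 4 were lower and 2 higher. Over all tested genes the order was the same: the median log2 difference was 0.27 in the quartile of shortest transcripts (56 to 2391 bases) and -0.20 in the longest (6460 to 123179 bases). With a smooth trend on exon length removed from each library, Ryr1 went from -0.42 to -0.08 and Trdn from 0.19 to 0.39. Pvalb went from 0.81 to 0.57 and Cacna1s from -1.04 to -0.92, and none of the 10 passed (limma, lowest adjusted p = 0.0625, for Cacna1s). Under both changes at once, no length trend and no control replicate 3 or 4, Cacna1s was at -0.57 and Pvalb at 0.35 (limma, adjusted p = 0.644 and 0.725).

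**Figure D5:**
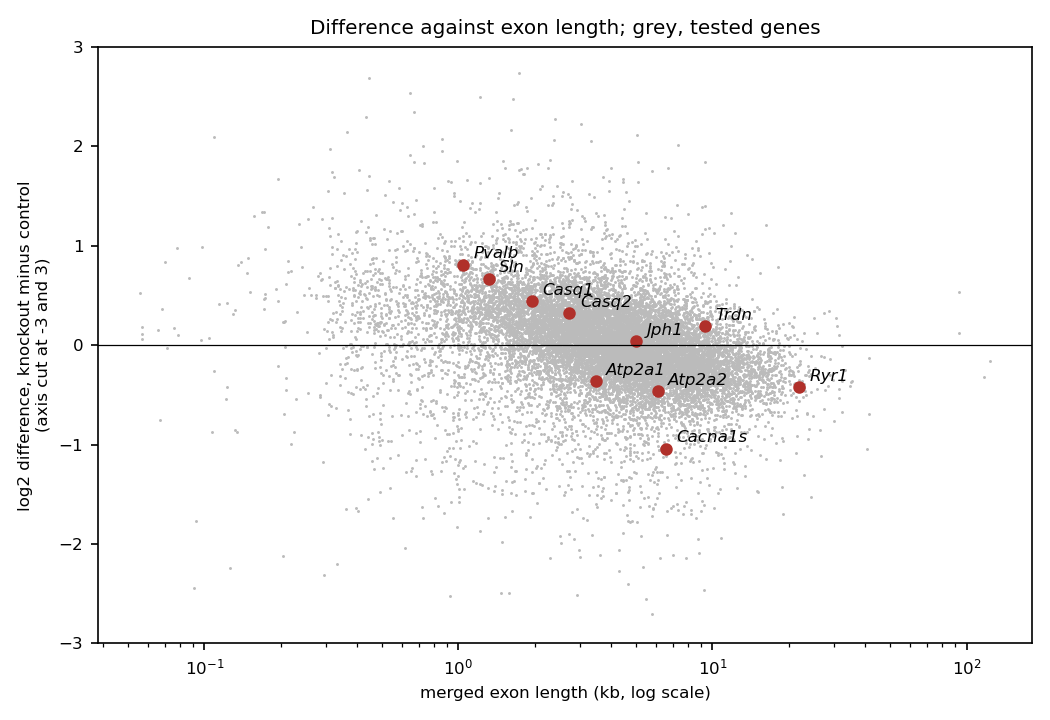
Log2 difference, knockout minus control, against merged exon length in kb (log axis) for tested genes in grey and the 10 calcium-handling genes in red; 3 tested genes lie beyond the vertical axis. Pvalb, at 0.81, is the shortest of the 10 and Ryr1, at -0.42, the longest, and Cacna1s lies lowest at -1.04.

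Other genes of calcium handling, in 6 lists, were measured alongside. Of 71 genes 70 were matched to the table and 68 tested, and 0 passed in either direction (limma, adjusted p under 0.05); at an unadjusted p under 0.05 there were 13 higher and 11 lower, against 13.6% and 13.3% of all genes tested. By estimate, 33 were higher and 35 lower. Among 25 genes of the triad and release machinery the median difference was 0.09 (0.03 without control replicates 3 and 4, 0.04 with the length trend removed), with 6 higher and 3 lower at the unadjusted threshold. Jsrp1, a triad protein that binds the dihydropyridine receptor and calsequestrin, differed by 0.75 ± 0.20 (SE; limma, adjusted p = 0.0796), and 0.38 without control replicates 3 and 4. Cav3, the caveolin of muscle, differed by 0.52 ± 0.17 (adjusted p = 0.0952), and 0.22 without those 2 libraries.

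The 5 tested pump regulators had a median of 0.10, which was 0.02 without control replicates 3 and 4 and 0.08 with the length trend removed. Mrln, the peptide myoregulin that inhibits SERCA in fast fibres, was at 5064 ± 1985 in controls and 7801 ± 1781 in knockouts (SD, n = 4 each), or 0.68 ± 0.25 apart on the log2 scale (limma, adjusted p = 0.119), and 0.21 without those libraries. Per kb its control level was 4292 ± 1682, against 105.8 ± 70.8 for Sln. Strit1, a peptide that relieves the inhibition, was near the abundance minimum, at 18.3 ± 21.7 normalized counts in controls and 19.8 ± 4.6 in knockouts.

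The genes that carry calcium out of the fibre had lower estimates in 6 of 6 tested, with a median of -0.43, and 3 reached an unadjusted p under 0.05 (13.3% of all genes did so in this direction). The shared direction did not hold under other settings: 4 of 6 were lower without control replicates 3 and 4, with a median of -0.23, and 3 of 6 with the length trend removed, with a median of -0.26. Slc8a1, a sodium-calcium exchanger, was at 255.4, 247.2, 563.6 and 640.8 in the controls and 118.3, 178.0, 116.7 and 173.4 in the knockouts. The groups did not overlap, and control replicates 3 and 4 were again highest. The log2 difference was -1.43 ± 0.31 (SE; limma, adjusted p = 0.0796), and -0.80 without these 2 libraries. Slc8a3, the more abundant exchanger per length, differed by -0.61 ± 0.16 (adjusted p = 0.0796), and -0.34 without them.

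Store-operated entry, with 7 genes tested, had a median difference of -0.18, which was -0.10 without control replicates 3 and 4 and -0.01 with the length trend removed. Stim1, the calcium sensor of the reticulum, was at 17373 to 20655 in controls and 13320 to 16414 in knockouts, a difference of -0.33 ± 0.11 on the log2 scale (limma, adjusted p = 0.0914), and its channel Orai1 differed by 0.32 ± 0.13 (adjusted p = 0.138). Stim1 was at -0.25 without control replicates 3 and 4 and at -0.11 with the length trend removed. Orai1 was at 0.10 and 0.17 in these settings, in that order. The mitochondrial list (10 tested) had a median of 0.08, which was 0.03 without control replicates 3 and 4 and 0.14 with the length trend removed. By estimate 7 of its 10 genes were higher, and 9 of 10 with the trend removed. In it Mcub, an inhibitory subunit of the uniporter, differed by 0.64 ± 0.25 and Smdt1, its regulator EMRE, by 0.54 ± 0.19 (limma, adjusted p = 0.126 and 0.102). Without control replicates 3 and 4 these were 0.33 and 0.14, and with the length trend removed 0.42 and 0.33. The signalling list (15 tested) had a median of -0.16, which was -0.06 without these libraries and -0.04 with the length trend removed. In it Rcan1, a calcineurin inhibitor whose transcription responds to calcineurin, was at 6651 to 7938 in controls and 8013 to 12759 in knockouts, a difference of 0.43 ± 0.14 (limma, adjusted p = 0.0949). Its difference was 0.44 without control replicates 3 and 4. Nfatc3, a transcription factor that calcineurin activates, differed by -0.54 ± 0.18 (adjusted p = 0.094), and -0.17 without them.

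For 4 members, the genes of most similar pattern were ranked by Pearson's r of log2 values over the 8 libraries, a description over libraries that share the separation of control replicates 3 and 4. Each r given is among the highest over all tested genes that are not members. With 8 libraries such a maximum can be high for unrelated genes as well. Atp2a2 was far highest in control replicate 3, and Sln was highest in knockout replicates 8 and 6. For these genes a few libraries can carry r. The closest to Pvalb were Mtg1, Uqcc3 and Eef1g (r = 0.997, 0.997 and 0.996), and to Cacna1s Bcl2l13, Ap3b1 and Mprip (r = 0.995, 0.993 and 0.992). The closest to Atp2a2 was Cds2 (r = 0.997), and to Sln they were Surf6, Cox11 and Fam193b (r = 0.959, 0.959 and 0.951). Markers of other cell types gave higher sums in the knockouts for macrophages and, with overlap, for fibroblasts. The summed level of 8 macrophage markers was 7578 to 11690 in controls and 11898 to 19108 in knockouts, and that of 8 fibroblast markers 81142 to 97542 and 91071 to 148399, with none at 0 in every library. The lowest macrophage sum was that of control replicate 3. Most of the fibroblast sum came from Dcn, Col1a1 and Col3a1. By estimate all 8 fibroblast markers were higher, though Pdgfra only by 0.01 ± 0.12. The part of these cell types in the differences above was not tested.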

How the data were processed

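White quadriceps RNA of 8 samples was sequenced. The submitters' processing notes name STAR, HTSeq, DESeq2, FastQC, cutadapt and the build GRCm38, without roles; strand setting, versions and annotation: not given in the sources used here. What the authors deposited is a log2 table. Its form, log2(normalized count + 1), is inferred: undone, 100% of values between 1 and 1000 reads were whole multiples of a step per library, within 0.1. These steps gave the recovered reads; 3 reads correspond to normalized counts of 2.04 to 3.87, for counting error only. Chi-square per gene was 35.4 to 265 over the 12 replicate pairs, beyond sampling noise in each.

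Groups came from the sample titles. Limma 3.58.1 (R 4.3.3) was run on the deposited log2 values of genes averaging 10 normalized counts or more, with trended and robust eBayes, two-sided, Benjamini-Hochberg adjusted over all 15657 genes at 0.05. Differences are knockout minus control, on the log2(normalized count + 1) scale, which understates low genes. The fit was also run on simulated reads with independent noise for each gene. These lacked the separation of control replicates 3 and 4 and the length trend, so its behaviour under those was not tested. Exon lengths came from GENCODE M21 (GRCm38), which need not be the annotation used for counting; the length trend is a loess curve with a span of 0.5. Python 3.11.15, scipy 1.17.1 and matplotlib 3.10.9 served for the rest. The members and lists were chosen with earlier results of these data known. Named were the members, the 2 genes of smallest p in each further list, tissue markers and nearest patterns. Mcub and Strit1 were matched by Entrez identifier; Arln was not matched, and Trpc4 and Atp2b2 were under the minimum. Alternatives were other pseudocounts, filters, scalings, variance models, voom on the recovered reads, the length trend and left-out libraries.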

Additional observations from a re-analysis of the deposited data

Results flagged for a closer look

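Samples were examined for 1 value far from the other 3 of its group (Dixon's ratio of gap to range above its 95% critical value), in 84 groups of 4; chance flags about 1 group in 20, and 13 values were found. Atp2a2 was at 30037 in control replicate 3, together with Myh7 at 15187.6. Jph1 was at 29416.8 in control replicate 2, a small gap in a narrow range. In knockout replicate 8 there were 9 heart markers: Myl7 (normalized count 1124.4), Nppa (1648.1), Nppb (56.2), Myl4 (2988.5), Myh6 (2522.1), Tnni3 (1280.7), Tnnt2 (2252.4), Mybpc3 (267.4) and Ryr2 (91.6). Sbk2 was at 7561.8 in knockout replicate 6.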

How the results depend on the processing

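The count of genes past the threshold was 1. It was 2 with no filter, 2 with equal totals, 5 with the length trend removed, 7 with eBayes without the trend and robust options and 1201 with sample quality weights, whose estimation gave a convergence warning, and 1 to 2048 with each library left out in turn (1722 without control replicate 1, 2048 without control replicate 2). Of the 10 members 0 passed. With sample quality weights 2 did, where 7.67% of all genes did, and with each library left out in turn 0 to 4 did: 3 without control replicate 1 (11.0% of all genes) and 4 without control replicate 2 (13.1%). Their median log2 difference was 0.04 to 0.16 under the 20 alternatives. Of 200 member estimates under alternatives 195 kept their direction. Atp2a2 ran from -0.72 to 0.04 with each library left out and reversed to 0.04 without control replicate 3, 0.02 without control replicates 3 and 4 and 0.04 with the length trend removed as well, and Jph1 to -0.03 with quantile normalization and -0.0012 without knockout replicate 6, within a range of -0.0012 to 0.07 with each library left out. The log2 ratio of Atp2a2 to Atp2a1 reversed from -0.10 to 0.05 with the length trend removed, 0.22 without control replicates 3 and 4 and 0.26 with both, and ran from -0.34 to 0.36 with each library left out. That of Casq2 to Casq1 reversed from -0.12 to 0.01 without control replicates 3 and 4 and 0.04 with both, and ran from -0.29 to 0.15. The other 3 ratios kept their direction; Ryr1 to Cacna1s ran from 0.35 to 0.84 and Sln to Atp2a1 from 0.33 to 1.66. The causes were not tested. No paired analysis was possible because the groups share no replicate numbers. Sln, with 59 to 621 reads, had the fewest reads of the members. Its normalized counts ranged from 57.2 to 758.1 between libraries, with an SE of 0.88 on the log2 scale.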
